A study of Mus musculus with 24 samples.

Results

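The Hox genes were examined as a group in ribosome-bound RNA pulled from mouse spinal cord. Members were all genes whose symbol is Hox followed by a cluster letter, a to d, and a paralogue number, and 38 of the 38924 genes listed matched. Of these, 11 lie in cluster a, 10 in cluster b, 9 in cluster c and 8 in cluster d. They were read by cluster and by paralogue number, with 14 members at 4 to 8 (cervical), 4 at 9 (thoracic), 12 at 10 to 13 (lumbosacral) and 8 at 1 to 3, which are called anterior here.

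The libraries came from a RiboTag experiment on motor neurons of adult mice carrying the C201R allele of Gars, the glycyl-tRNA synthetase gene. In this method a Cre recombinase makes cells put an HA tag on Rpl22, a protein of the large ribosomal subunit, and ribosomes are pulled down by the tag with the messenger RNA on them. Cre was driven from ChAT, the gene of the acetylcholine-making enzyme, so the tagged ribosomes belong to cholinergic neurons of every kind and every level of the cord. All mice were 8 weeks old, of the background B6.CgxB6.129, and carried the tagged Rpl22 allele (Rpl+/-), and whole spinal cords were used. The C201R Cre mice were Rpl+/-;Chat+/-;C201R+/- and the WT Cre mice were Rpl+/-;Chat+/-;C201R+/+. Their controls without Cre were the C201R no-Cre mice, Rpl+/-;Chat+/+;C201R+/-, and the WT no-Cre mice, Rpl+/-;Chat+/+;C201R+/+. Each group had 6 libraries, each titled with its own mouse number, so 24 libraries were used. A pulldown without Cre has no tagged ribosomes to bind, and its RNA is what stayed on the beads from the whole cord.

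Hox genes encode transcription factors that bind DNA through a homeodomain, and their order within a cluster follows the order along the body axis in which they are expressed. Low paralogue numbers mark the hindbrain and upper neck, and high numbers mark the lumbar and sacral levels. In developing motor neurons these factors, together with Pbx and Meis cofactors and Foxp1, set the motor column and the motor pool, and some expression lasts into adult life.

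Genes with one paralogue number in different clusters are close copies, and their likeness is greatest in the homeobox, the stretch of 180 bases that encodes the homeodomain. The 6 homeoboxes below are shown because same-numbered members differed in how they stood with Cre, and so the reads of one had to be told from those of another. Each is given from 5′ to 3′ on the gene's strand, from GENCODE M21 transcripts (GRCm38), and lies in the last exon of its transcript. Capitals mark the bases that differ from the first sequence of each set, which are Hoxc8 and Hoxc10.
Hoxc8 (chr15:102992571-102992750, plus strand): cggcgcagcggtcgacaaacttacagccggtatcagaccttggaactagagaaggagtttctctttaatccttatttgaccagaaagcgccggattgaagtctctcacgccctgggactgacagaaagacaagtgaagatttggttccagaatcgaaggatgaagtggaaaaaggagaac
Hoxb8 (chr11:96284174-96284353, plus strand): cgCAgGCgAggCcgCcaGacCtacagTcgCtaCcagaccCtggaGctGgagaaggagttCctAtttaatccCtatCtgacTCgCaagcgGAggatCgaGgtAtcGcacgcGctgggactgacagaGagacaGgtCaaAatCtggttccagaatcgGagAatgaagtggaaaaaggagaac
Hoxd8 (chr2:74706525-74706704, plus strand): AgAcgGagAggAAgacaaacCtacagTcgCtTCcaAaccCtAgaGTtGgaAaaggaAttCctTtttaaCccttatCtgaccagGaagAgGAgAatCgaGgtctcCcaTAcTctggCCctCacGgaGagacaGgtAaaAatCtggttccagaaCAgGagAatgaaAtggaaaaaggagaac
Hoxc10 (chr15:102970848-102971027, plus strand): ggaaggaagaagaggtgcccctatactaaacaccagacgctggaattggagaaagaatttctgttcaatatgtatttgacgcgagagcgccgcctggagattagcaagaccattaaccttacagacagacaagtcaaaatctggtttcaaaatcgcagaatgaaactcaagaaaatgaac
Hoxa10 (chr6:52232554-52232733, minus strand): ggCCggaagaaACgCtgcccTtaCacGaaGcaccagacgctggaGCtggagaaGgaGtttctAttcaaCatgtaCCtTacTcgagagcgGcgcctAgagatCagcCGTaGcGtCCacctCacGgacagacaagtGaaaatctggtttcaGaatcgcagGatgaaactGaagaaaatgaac
Hoxd10 (chr2:74694141-74694320, plus strand): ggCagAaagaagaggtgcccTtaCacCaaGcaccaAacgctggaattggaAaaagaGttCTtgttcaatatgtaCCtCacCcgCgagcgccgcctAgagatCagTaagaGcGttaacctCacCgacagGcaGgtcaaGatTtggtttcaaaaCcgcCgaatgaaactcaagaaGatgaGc
In this stretch Hoxb8 differed from Hoxc8 at 36 bases and Hoxd8 at 48. Hoxa10 differed from Hoxc10 at 35 bases and Hoxd10 at 31. Over the 39 same-number pairs of members the identity ran from 67.2% to 93.9% with a median of 80.6%, and no pair shared an identical run longer than 47 bases in the homeobox. Over whole transcripts, 17 of the 38 members shared no window of 50 bases with any other gene, 11 shared under 5% and 10 shared 5% or more. The largest shares were 60.3% for Hoxd3, which overlaps neighbouring genes of its cluster and an antisense transcript, and 51.4% for Hoxb3, which overlaps the antisense transcript Hoxb3os. Hoxa11 shared 33.0%, Hoxb2 25.9%, Hoxa3 24.3%, Hoxa7 18.7%, Hoxa4 13.3%, Hoxa2 12.7% and Hoxd11 10.0%. Hoxc5 and Hoxc10 share an exon sequence of 119 windows, 3.92% and 6.40% of their windows. No source used here gives the strand setting of the count, so reads of these members and of their overlapping partners cannot be told apart.

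Library totals ran from 8.90 to 28.3 M expected counts, and averaged 18.3 ± 3.30 M in C201R Cre, 21.5 ± 4.74 in WT Cre, 11.3 ± 2.38 in C201R no-Cre and 12.5 ± 1.69 in WT no-Cre (SD, n = 6 each). The mitochondrial genome took 6.87%, 4.98%, 45.4% and 48.3% of counts in these groups, and Gm26924, which overlaps ribosomal RNA repeats, took 25.4%, 13.2%, 3.61% and 2.97%. A pair of Cre libraries stood apart. Mouse 14003-1 (C201R Cre) had 15.8% mitochondrial counts, 43.3% Gm26924 counts and 185 CPM of summed Hox counts over its library total, and mouse 14701-9 (WT Cre) had 17.1%, 30.8% and 440. Both genotypes passed the check of the pulldown, since Chat rose by 5.09 ± 0.34 on the log2 scale with Cre in C201R and by 3.59 ± 0.32 in WT. Gars was higher in C201R Cre than in WT Cre by 0.80 ± 0.12 (edgeR's quasi-likelihood test with Benjamini-Hochberg adjustment, adjusted p = 0.0020).

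Most markers of other cell types were lower with Cre. In the pooled comparison 14 of 15 tested cholinergic and motor neuron markers rose, and all 12 oligodendrocyte, 11 of 12 astrocyte, 11 of 11 microglial, 11 of 12 endothelial and mural, 8 of 8 fibroblast and Schwann, and 8 of 10 other spinal neuron markers fell. Of 2 tested ependymal markers 1 fell, and of 4 tested sensory ganglion markers 1 rose and 2 fell. Summed cholinergic marker levels ran from 1449 to 2260 CPM (counts scaled to a common library size by TMM over all 24 libraries) in C201R Cre and 1782 to 3120 in WT Cre, against 125 to 203 in C201R no-Cre and 182 to 589 in WT no-Cre. Summed oligodendrocyte levels ran from 588 to 882 CPM and 531 to 1162 CPM with Cre, against 5296 to 8208 CPM and 5144 to 9183 CPM without. Summed ependymal levels averaged 5.37 CPM in C201R Cre and 5.26 CPM in WT Cre, against 10.2 CPM in C201R no-Cre and 5.51 CPM in WT no-Cre. The part of this shift in the Hox values was not tested, and in such bulk samples fewer cells of a type and less RNA per cell cannot be told apart. Brain and hindbrain markers were near 0, with summed levels of at most 6.19 CPM outside C201R Cre. Within C201R Cre they ran from 0.406 to 32.5 CPM, and in the library at the top nearly all of it was Otx2, at 32.3 CPM.

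Pulldowns with Cre held Hox messages of all 4 clusters, as did those without, and the same 3 genes stood first in every group, further ahead with Cre. Hoxa7, Hoxc8 and Hoxc10 together gave 41.2%, 54.0% and 60.2% (lowest, median and highest library) of summed Hox TPM (a level per transcript length, scaled to a common total) in C201R Cre. They gave 50.9%, 56.1% and 60.4% in WT Cre, against 30.1%, 39.9% and 43.4% in C201R no-Cre and 17.04%, 35.9% and 36.8% in WT no-Cre. The Cre library with the lowest share, mouse 14003-4 (C201R), was the only one inside the range of the no-Cre libraries. Hoxa7, the lowest of the 3 by mean share in each group, gave 16.5% in C201R Cre and 16.2% in WT Cre, and the next genes 5.01% (Hoxb7) and 5.16% (Hoxd9). Without Cre it gave 9.83% in C201R and 8.28% in WT, and the next genes 5.78% (Hoxb8) and 7.44% (Hoxd8).

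Hoxc10, a gene of lumbar motor neurons, averaged 68.3 ± 26.9 TPM in C201R Cre and 108 ± 28.6 in WT Cre, against 26.0 ± 11.7 in C201R no-Cre and 21.6 ± 11.98 in WT no-Cre (SD, n = 6 each). Hoxc8, which patterns forelimb motor pools, averaged 72.5 ± 30.2 and 91.0 ± 19.9 TPM with Cre, against 32.0 ± 11.4 and 22.3 ± 2.51 without, again C201R before WT. Hoxa7, a gene of the trunk, averaged 66.4 ± 32.0 and 80.5 ± 18.7 TPM with Cre, against 19.4 ± 11.8 and 15.0 ± 5.15 without. Neighbours in this order lay within 1 SD of each other in each Cre group, a spread that does not pair the genes by library. Library by library, Hoxc10 stood above Hoxa7 throughout WT Cre, and above Hoxc8 in all but mouse 14701-9. In C201R Cre the order among the 3 changed between libraries.

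Mice 14003-1 and 14701-9 had the lowest summed Hox level of their groups in TPM, at 122 and 301. TPM totals include mitochondrial and Gm26924 RNA, of which both libraries held much. In TMM-scaled CPM mouse 14701-9 was the highest of WT Cre for Hoxa7, Hoxc8 and Hoxc10, at 81.2, 121 and 89.8. Mouse 14003-1 had 62.0, 113 and 81.2 CPM of them, against C201R Cre medians of 69.4, 96.9 and 78.9. The TPM gaps above between Cre and no-Cre groups also carry this, and the fits below give the changes.

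The next level was near 20 TPM. In WT Cre, Hoxd9 averaged 25.9 ± 7.72, Hoxb5 23.9 ± 7.43, Hoxd8 22.2 ± 4.07, Hoxb7 16.9 ± 4.60 and Hoxa9 16.4 ± 4.34 TPM, with the first 3 within 1 SD of each other and likewise the last pair. In C201R Cre the same 5 genes ran from 16.2 ± 8.84 TPM for Hoxd9 to 18.9 ± 10.3 TPM for Hoxd8. At the other end, Hoxb1 and Hoxd12 were close to absent, with 10 counts in 5 libraries and 11 counts in 6 libraries. By cluster, c gave the largest mean share of Hox TPM in every group, at 43.7% in C201R Cre and 46.97% in WT Cre, against 41.4% in C201R no-Cre and 37.5% in WT no-Cre. Cluster b gave 16.9% and 14.3% with Cre, against 23.7% and 25.5% without.

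**Figure D1:**
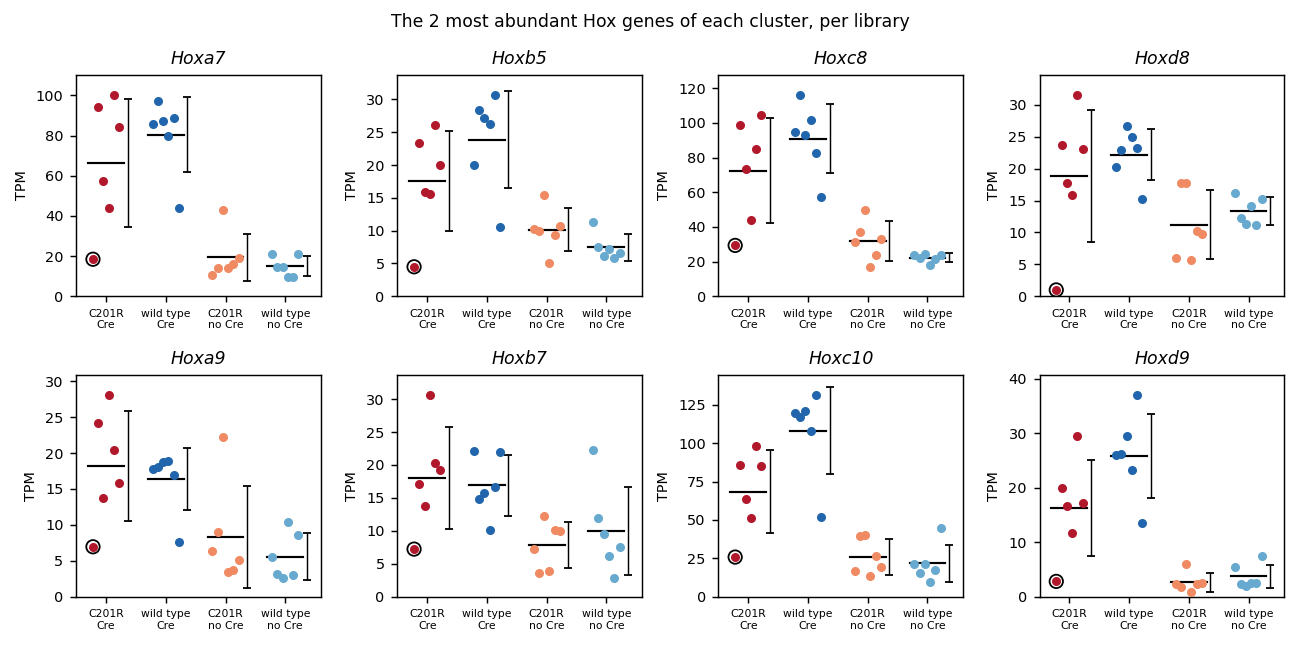
TPM of the pair of most abundant members of each cluster in each library, by group, with bars at the group mean and error bars of 1 SD (n = 6 each). Ringed points are mouse 14003-1. Hoxc10, Hoxc8 and Hoxa7 stand above the other 5 genes in the Cre groups, with WT Cre means of 108, 91.0 and 80.5 TPM.

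The comparison of Cre with no Cre asks which messages the tagged ribosomes carry over what the beads hold from the cord at large. Averaged over both genotypes, 16 of the 32 members tested passed the threshold (adjusted p under 0.05), 5 higher and 11 lower with Cre. Among all 16109 genes tested 70.8% passed, 33.4% higher and 37.4% lower. The 5 that rose were Hoxd9, Hoxa7, Hoxc10, Hoxc8 and Hoxa10. The 11 that fell were Hoxb3, Hoxd3, Hoxb4, Hoxa3, Hoxa4, Hoxb8, Hoxc5, Hoxc4, Hoxa5, Hoxc6 and Hoxb6, none with a number above 8. The other 6 members, with Hoxb1, Hoxd12 and Hoxd13 among them, were not tested for low counts, so the lists above do not cover them. Hoxd13 had at most 0.137 CPM in WT Cre and at least 0.396 CPM in WT no-Cre, and its C201R groups overlapped. The fold changes below and their SE are from this pooled fit, and CPM are given as the lowest, median and highest of the 6 libraries of a group.

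Hoxd9, of the lower thoracic and lumbar cord, had 10.2, 19.9 and 23.9 CPM in C201R Cre and 17.8, 21.2 and 28.02 CPM in WT Cre. Without Cre it had 2.46, 4.99 and 7.36 CPM in C201R and 3.89, 5.16 and 11.8 CPM in WT. Within each genotype every Cre library lay above every no-Cre library, while over all 24 the lowest Cre library, mouse 14003-1, lay below a pair of WT no-Cre libraries. Its log2 fold change was 1.87 ± 0.23 (adjusted p = 2.6e-08).

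Hoxa7 had 62.0, 69.4 and 86.9 CPM in C201R Cre and 56.3, 62.0 and 81.2 CPM in WT Cre, against 19.3, 32.7 and 47.8 CPM in C201R no-Cre and 16.6, 25.6 and 38.8 CPM in WT no-Cre. All 12 of its Cre libraries lay above all 12 no-Cre libraries, and its log2 fold change was 1.27 ± 0.16 (adjusted p = 4.1e-08). Part of its sequence overlaps the antisense gene Hoxaas3.

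Hoxc10 had 57.4, 78.9 and 82.2 CPM in C201R Cre and 71.3, 81.6 and 89.8 CPM in WT Cre, against 31.4, 38.5 and 52.7 CPM in C201R no-Cre and 15.6, 34.9 and 61.2 CPM in WT no-Cre. The groups did not overlap within a genotype, and 1 WT no-Cre library reached into the range of C201R Cre. The log2 fold change was 1.05 ± 0.17 (adjusted p = 3.0e-06).

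Hoxc8 had 63.8, 96.9 and 124 CPM in C201R Cre and 66.3, 80.9 and 121 CPM in WT Cre, against 48.0, 62.5 and 78.3 CPM in C201R no-Cre and 35.2, 44.4 and 56.1 CPM in WT no-Cre. The WT groups did not overlap, and the C201R groups did. Its log2 fold change was 0.72 ± 0.13 (adjusted p = 2.7e-05).

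Hoxa10, a gene of hindlimb motor neurons, was less clear. It had 3.69, 7.86 and 13.2 CPM in C201R Cre and 3.82, 5.36 and 7.75 CPM in WT Cre, against 0.964, 5.10 and 6.53 CPM in C201R no-Cre and 2.48, 4.34 and 8.51 CPM in WT no-Cre. The groups overlapped in both genotypes, and a log2 fold change of 0.66 ± 0.29 passed narrowly (adjusted p = 0.041). The call held in 15 of the 24 fits that each leave out 1 library, and it was lost with DESeq2 (0.51, adjusted p = 0.075) and in library series 2 alone (0.49, adjusted p = 0.10).

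**Figure D2:**
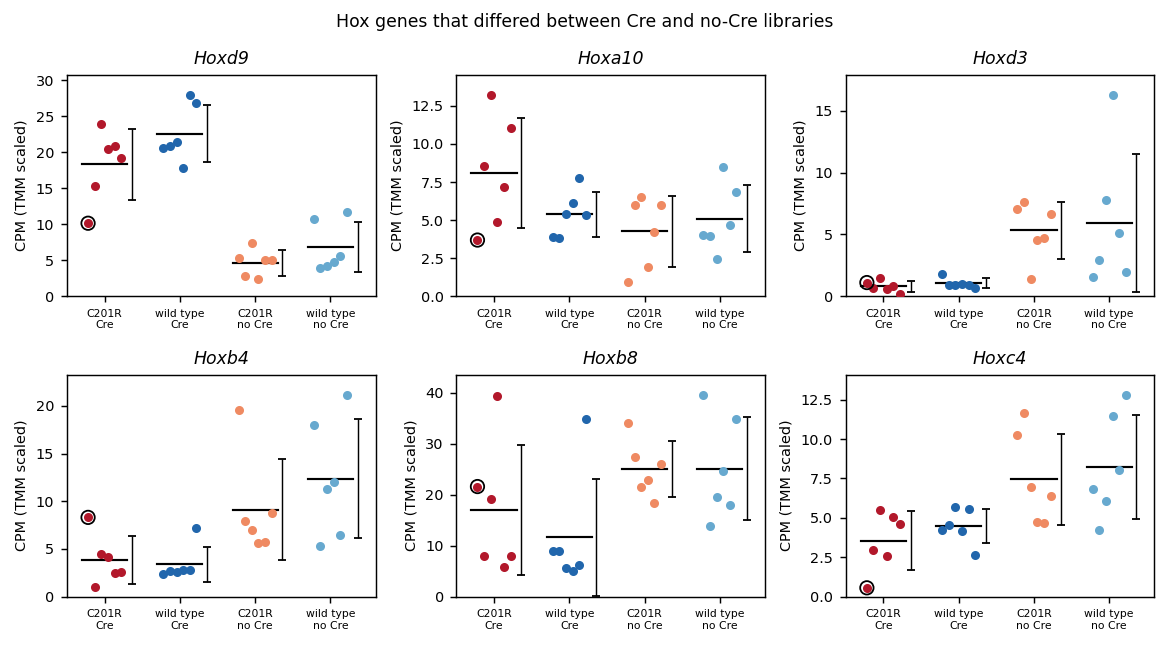
TMM-scaled CPM of 6 members in each library, by group, with bars at the group mean and error bars of 1 SD (n = 6 each). Ringed points are mouse 14003-1. Hoxd9 stands higher with Cre, without overlap within either genotype. The group means of Hoxd3, Hoxb4, Hoxb8 and Hoxc4 are lower with Cre, and the ranges of these genes and of Hoxa10 overlap in both genotypes.

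The furthest falls were those of Hoxb3, Hoxd3, Hoxb4 and Hoxa3. The tested members with lower numbers, Hoxa2 at -0.51 ± 0.55 and Hoxb2 at -0.88 ± 0.87, did not pass. Hoxb3, Hoxd3 and Hoxa3, of the hindbrain and upper neck, are the 3 paralogues 3. Hoxd3 had 0.217, 0.732 and 1.47 CPM in C201R Cre and 0.667, 0.942 and 1.82 CPM in WT Cre, against 1.42, 5.68 and 7.65 CPM in C201R no-Cre and 1.57, 4.01 and 16.3 CPM in WT no-Cre. The ranges met only at the lowest no-Cre library of each genotype, and the log2 fold change was -2.73 ± 0.41 (adjusted p = 1.2e-06).

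Hoxa3 had 0.369, 2.26 and 4.11 CPM in C201R Cre and 1.65, 2.30 and 7.43 CPM in WT Cre, against 4.43, 7.03 and 22.7 CPM in C201R no-Cre and 4.22, 6.95 and 11.5 CPM in WT no-Cre. The C201R groups did not overlap, and in WT mouse 14701-9 alone, at 7.43 CPM, lay among the no-Cre libraries. Its log2 fold change was -1.82 ± 0.32 (adjusted p = 1.5e-05). Hoxb3 was scarce, at no more than 0.952 CPM in any Cre library and up to 8.78 CPM in 1 WT no-Cre library, and its groups overlapped. It fell by 3.07 ± 0.73 on the log2 scale (adjusted p = 0.00051), with more than 51% of its windows shared with an antisense transcript that also fell.

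Among the paralogues 4 to 8, 2 rose and 8 fell. Hoxb4, which marks the hindbrain and upper cord, had 0.968, 3.39 and 8.30 CPM in C201R Cre and 2.40, 2.73 and 7.14 CPM in WT Cre, against 5.61, 7.49 and 19.6 CPM in C201R no-Cre and 5.35, 11.7 and 21.1 CPM in WT no-Cre. Mice 14003-1 and 14701-9 were the highest of their groups and the only Cre libraries inside the no-Cre ranges. The log2 fold change was -1.90 ± 0.30 (adjusted p = 1.9e-06).

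Hoxb8, known for its part in dorsal horn circuits and in the microglial lineage, stood opposite to Hoxc8. It had 5.79, 13.6 and 39.4 CPM in C201R Cre and 5.10, 7.57 and 34.8 CPM in WT Cre, against 18.4, 24.5 and 34.1 CPM in C201R no-Cre and 13.8, 22.2 and 39.6 CPM in WT no-Cre. Its Cre libraries split, with 8 of 12 at 9.00 CPM or less and the other 4 at 19.2 CPM or more, inside the no-Cre range. Those 4 are among the 5 Cre libraries of library series 1, a run of library numbers whose meaning the labels do not give. The log2 fold change was -1.47 ± 0.29 with the series in the fit (adjusted p = 6.2e-05), -1.87 in series 2 alone and -0.85 with no term for the series.

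Hoxc5, which with Hoxa5 specifies phrenic motor neurons, had 0.926, 2.64 and 5.91 CPM in C201R Cre and 4.79, 5.23 and 6.27 CPM in WT Cre, against 6.60, 9.62 and 31.7 CPM in C201R no-Cre and 5.55, 6.11 and 14.5 CPM in WT no-Cre. The C201R groups did not overlap and the WT groups did, and the pooled log2 fold change was -1.40 ± 0.28 (adjusted p = 6.6e-05). Hoxc4 had medians of 3.78 and 4.38 CPM with Cre, against 6.68 and 7.43 CPM without, with overlap in both genotypes, and changed by -0.89 ± 0.27 (adjusted p = 0.0047). Hoxa4 was scarce, with medians of 0.525 and 0.772 CPM against 1.76 and 1.81 CPM, and changed by -1.47 ± 0.50 (adjusted p = 0.010). Neither passed with library totals in place of TMM, at -0.19 and -0.73.

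The other 3 falls were smaller and depended on the scaling. Hoxa5 changed by -0.70 ± 0.21, Hoxc6 by -0.69 ± 0.30 and Hoxb6 by -0.62 ± 0.23 (adjusted p = 0.0051, 0.043 and 0.020). With library totals in place of TMM the median of all genes moved to 0.55 from -0.11, 11 members were higher and 6 lower, and these 3 stood at 0.00, -0.04 and 0.10. Relative to the median of all genes they were at -0.58, -0.58 and -0.50 under TMM and at -0.55, -0.60 and -0.46 under library totals. Hoxc6 kept its call in 10 of 24 fits without 1 library and Hoxb6 in 20. Relative to that median the 5 members that rose stood between 0.78 and 1.98 under TMM and between 0.74 and 1.98 under library totals.

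Abundance did not go with enrichment in all of the most abundant members. Hoxb5 had medians of 26.8 and 27.0 CPM with Cre against 25.1 and 16.8 CPM without, a log2 fold change of 0.33 ± 0.15 that missed the threshold (adjusted p = 0.052). Hoxd8 stood at -0.11 ± 0.20, Hoxa9 at 0.04 ± 0.20 and Hoxb7 at 0.00 ± 0.35, and none of them passed. Of the 13 members tested at 9 to 13, none but Hoxd9, Hoxa10 and Hoxc10 passed in the pooled comparison, with Hoxc9 at 0.23 ± 0.26, Hoxd10 at 0.32 ± 0.27, Hoxd11 at -0.42 ± 0.27 and Hoxb9 at -0.42 ± 0.30.

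Without mice 14003-1 and 14701-9, 19 of 33 tested members passed in the pooled comparison, 6 higher and 13 lower, against 74.5% of all genes (34.4% higher and 40.0% lower). The 16 members called with them were among these, with Hoxd9 at 1.89, Hoxa3 at -1.85, Hoxb4 at -2.02 and Hoxb8 at -1.50. The other 3 were Hoxa2 (-0.95, adjusted p = 0.039), Hoxb5 (0.36, adjusted p = 0.031) and Hoxd1 (-3.34, adjusted p = 0.0015), the last of which was too low to test with the pair. Over all libraries Hoxd1 averaged 0.0534 CPM in C201R Cre and 0.133 CPM in WT Cre, against 0.849 and 0.985 CPM without Cre. It thus entered through the no-Cre libraries, where it is high, and its call carries no weight for a fall.

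Read by paralogue number, the fold changes went up along the axis, with wide spread inside each class. The median log2 fold change was -1.82 over the 5 tested members at 1 to 3, of which 0 rose and 3 fell. It was -0.66 over the 14 at 4 to 8. For the 4 at 9 the median was 0.13, with Hoxd9 the 1 member called, and for the 9 tested at 10 to 13 it was 0.32, with 2 that rose and 0 that fell. The median over all genes tested was -0.11. Spearman's rho between paralogue number and log2 fold change was 0.66 over these 32 genes, which share libraries and are not independent replicates. In the genotype fits Hoxb3 passed the count filter among no-Cre libraries alone, and Hoxa11, Hoxb13, Hoxc11 and Hoxc13 among Cre libraries alone. Their pooled values were -3.07, -0.14, -0.20, 0.42 and 0.82. Members that enter through the group where they are high can move the class medians and rho, and how far was not tested. It was 0.57 in C201R (28 genes) and 0.59 in WT (27 genes). By cluster the medians were -0.28 in a, -0.62 in b, 0.23 in c and -0.11 in d, and cluster b had 0 members higher and 4 lower.

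**Figure D3:**
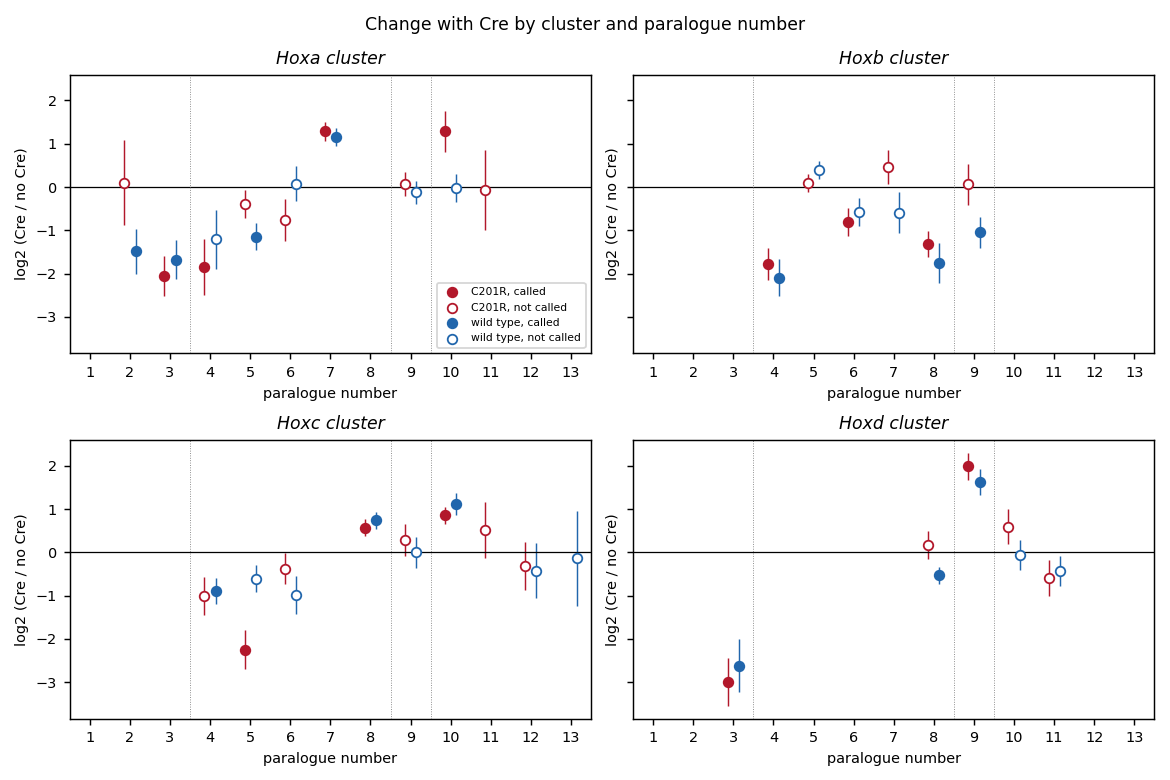
Log2 fold change of Cre over no Cre in C201R (red) and in wild type (blue) for the tested members of each cluster, by paralogue number, with error bars of 1 SE from edgeR; filled points passed the threshold and dotted lines part the classes. The lowest points are Hoxd3, at -2.99 in C201R and -2.61 in wild type, and the highest Hoxd9, at 1.98 and 1.62.

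The comparison was also fitted within each genotype, where the members' calls were again read beside all genes. In C201R, 12 of 28 tested members passed, 5 higher and 7 lower, against 56.8% of all genes (30.5% higher and 26.3% lower). In WT, 13 of 27 passed, 4 higher and 9 lower, against 60.6% of all genes (27.7% higher and 32.8% lower). Hoxd9, Hoxa7, Hoxc10 and Hoxc8 rose in both, by 1.98 ± 0.32, 1.29 ± 0.23, 0.86 ± 0.20 and 0.57 ± 0.20 in C201R and by 1.62 ± 0.30, 1.15 ± 0.21, 1.11 ± 0.25 and 0.74 ± 0.19 in WT. In C201R the call of Hoxc8 was lost with RLE factors (0.38, adjusted p = 0.097), with DESeq2 (0.38, adjusted p = 0.11), with the mouse number prefix as a block (0.48, adjusted p = 0.13) and in 4 of the 12 fits that each leave out 1 library. Hoxd3, Hoxa3, Hoxb4 and Hoxb8 fell in both, with Hoxd3 at -2.99 ± 0.56 in C201R and -2.61 ± 0.60 in WT.

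Some members passed in 1 genotype and not in the other, and the share of all genes that did so is not given here. Hoxa10 rose in C201R by 1.29 ± 0.48 (adjusted p = 0.028) and stood at -0.02 ± 0.33 in WT. Hoxc5 fell in C201R by 2.24 ± 0.45 and stood at -0.61 ± 0.31 in WT. Hoxb9, of the thoracic cord, fell in WT, at -1.05 ± 0.35 (adjusted p = 0.018), and stood at 0.07 ± 0.47 in C201R. Hoxa2, Hoxa5, Hoxc4 and Hoxd8 also fell in WT, at -1.49 ± 0.51, -1.14 ± 0.31, -0.89 ± 0.29 and -0.53 ± 0.20, and stood at 0.10 ± 0.98, -0.39 ± 0.31, -1.003 ± 0.44 and 0.18 ± 0.32 in C201R without passing. Hoxa4 and Hoxb6 also fell in C201R, at -1.85 ± 0.64 and -0.81 ± 0.31, and stood at -1.21 ± 0.68 and -0.57 ± 0.32 in WT without passing. Among the 12 fits that each leave out 1 library, the WT calls of Hoxd8, Hoxa2, Hoxc4 and Hoxb9 were lost in 8, 4, 2 and 1, and the C201R calls of Hoxa10, Hoxb6 and Hoxa4 in 4, 4 and 2. The difference between genotypes was tested as an interaction over all 24 libraries, where none of the 32 members passed in edgeR or DESeq2, against 0.130% of all genes in edgeR (0.0993% higher and 0.0310% lower). The member with the smallest p in edgeR was Hoxc5, at -1.71 ± 0.54 (adjusted p = 0.28). Hoxa10 stood at 0.98 ± 0.54 (adjusted p = 0.62), Hoxb13 at 2.57 ± 1.42 (adjusted p = 0.62) and Hoxb9 at 0.75 ± 0.56 (adjusted p = 0.73). With library totals the calls split 7 higher and 4 lower in C201R and 9 higher and 2 lower in WT, as the median of all genes moved to 0.65 from 0.06 and to 0.84 from -0.10.

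The mix of positions was also read within each library, as the share of summed Hox TPM, which needs no scaling between libraries. Paralogues 1 to 3 gave 0.820%, 1.28% and 2.48% in C201R Cre and 1.00%, 1.45% and 1.85% in WT Cre. Without Cre they gave 4.51%, 4.68% and 10.2% in C201R and 3.58%, 5.32% and 17.5% in WT. All 12 Cre libraries lay below all 12 no-Cre libraries, with mouse 14003-1 the highest of the Cre libraries. These are shares over the members and carry no test.

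Paralogues 10 to 13 gave 24.2%, 25.5% and 26.6% in C201R Cre and 25.8%, 28.8% and 31.1% in WT Cre, against 14.8%, 19.9% and 23.6% in C201R no-Cre and 10.6%, 20.1% and 27.3% in WT no-Cre. The C201R groups did not overlap and the WT groups did. The shares were also read without the most abundant gene of each class over all 24 libraries, which are Hoxa3, Hoxc8, Hoxa9 and Hoxc10. At number 9, Hoxa9 and Hoxd9 were level there at 12.1 TPM, and Hoxd9, the higher of the pair in WT Cre, was kept. The mean share of 10 to 13 was then 12.8% in C201R Cre and 12.7% in WT Cre, against 10.3% in C201R no-Cre and 11.7% in WT no-Cre. The share of 1 to 3 was then 1.69% and 1.54% with Cre, against 5.18% and 6.43% without, so it stayed low without Hoxa3.

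Paralogues 4 to 8 made the largest class everywhere, at 58.4%, 61.8% and 63.6% in C201R Cre and 56.1%, 59.4% and 62.4% in WT Cre, against 63.6%, 65.6% and 70.6% in C201R no-Cre and 60.1%, 63.3% and 71.7% in WT no-Cre. Paralogues 9 gave medians of 11.2% and 10.4% with Cre, against 7.58% and 8.17% without, with overlap. Inside the class of 4 to 8 the makeup differed, since Hoxa7 and Hoxc8 rose with Cre while Hoxb4, Hoxa4, Hoxb8, Hoxc5 and Hoxc4 fell.

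**Figure D4:**
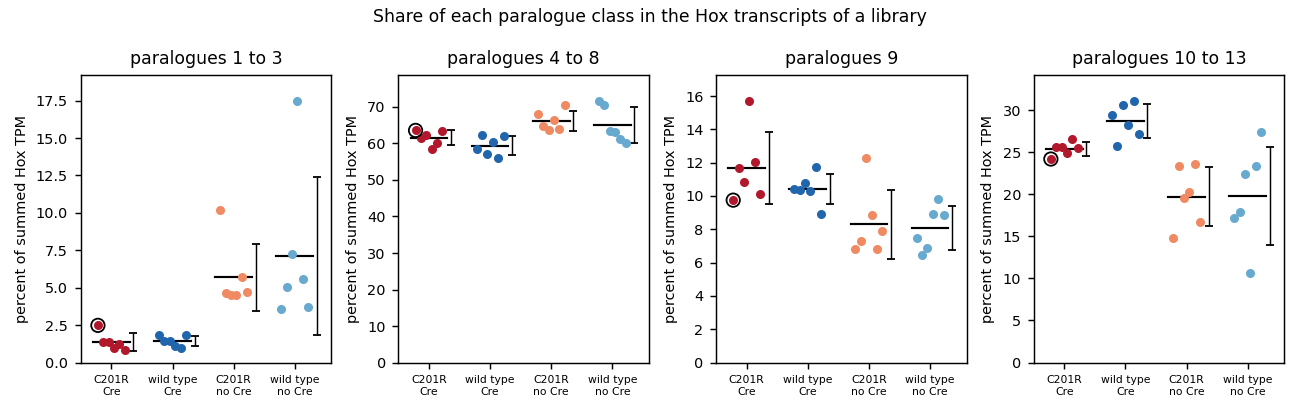
Share of summed Hox TPM (percent) from paralogues 1 to 3, 4 to 8, 9 and 10 to 13 in each library, by group, with bars at the group mean and error bars of 1 SD (n = 6 each). Ringed points are mouse 14003-1. The Cre libraries lie between 0.820% and 2.48% for paralogues 1 to 3, below every no-Cre library.

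The comparison of genotypes asks whether C201R changes the messages in pulldowns of cholinergic neuron ribosomes. Between C201R Cre and WT Cre none of the 30 tested members passed in edgeR or DESeq2, against 4.11% of all 14634 genes tested in edgeR (2.29% higher and 1.82% lower). In each tool 5 members had an unadjusted p under 0.05, in edgeR Hoxa9, Hoxc5, Hoxb9, Hoxa2 and Hoxa10. The share of all genes at that level is not given here for this fit. In the edgeR fit without mouse 14003-1, 3133 of 14938 genes and 5 of 31 members were at that level, so the members' share was not above that of all genes there. For each of the 38 members the 2 genotypes' ranges overlapped, and the share of all genes that did so is not given here. The abundant members stood at 0.13 ± 0.13 (Hoxa7), 0.12 ± 0.18 (Hoxc8), -0.18 ± 0.12 (Hoxc10) and -0.30 ± 0.20 (Hoxd9) on the log2 scale.

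Hoxb9 had 0.369, 7.59 and 11.6 CPM in C201R Cre and 1.98, 3.73 and 5.33 CPM in WT Cre, while the no-Cre groups had medians of 8.72 CPM in C201R and 6.08 CPM in WT. All C201R Cre libraries but that of mouse 14003-1, with 2 Hoxb9 counts, lay above all WT Cre libraries. The log2 difference was 1.00 ± 0.46 (adjusted p = 0.25).

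Hoxc5 had 0.926, 2.64 and 5.91 CPM in C201R Cre and 4.79, 5.23 and 6.27 CPM in WT Cre. Here too mouse 14003-1, with 32 Hoxc5 counts, was the 1 C201R Cre library inside the WT Cre range, and the other 5 lay below it. The log2 difference was -0.90 ± 0.37 (adjusted p = 0.20). Hoxa9 had 10.6, 12.3 and 22.8 CPM in C201R Cre against 8.87, 9.44 and 10.7 CPM in WT Cre, and the difference of 0.49 ± 0.20 did not pass (adjusted p = 0.19). Hoxa10 stood at 0.66 ± 0.30 (adjusted p = 0.26). Hoxa2, scarce at a mean of 1.28 TPM in C201R Cre and 0.742 TPM in WT Cre, stood at 1.76 ± 0.80 (adjusted p = 0.25) and at 0.65 without mouse 14003-1.

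Without mouse 14003-1, 2 of 31 tested members passed, a share near that of all genes, of which 6.27% passed (3.36% higher and 2.91% lower). Hoxb9 was then higher in C201R Cre by 1.22 (adjusted p = 0.0078), with 6.59, 8.10 and 11.6 CPM in the 5 libraries left. Hoxc5 was lower by 1.19 on the log2 scale (adjusted p = 0.029), with 0.926, 2.38 and 3.78 CPM. Both passed also in library series 2 alone, at 1.31 and -0.87 (adjusted p = 0.0041 and 0.047), where 3 C201R Cre and 4 WT Cre libraries remain and 2 of 32 members passed against 8.97% of all genes. They passed as well without mice 14003-1 and 14701-9, at 1.34 and -1.15 (adjusted p = 0.0019 and 0.018), where 2 of 31 members passed against 13.3% of all genes. Mouse 14003-1 is in series 1, so these fits leave it out too and are not separate support. That mouse stood out for Hoxb9 itself, at 0.369 CPM, and in the other 11 fits without 1 library no member passed. The reads of Hoxb9 and Hoxc5 overlap other genes over 0.233% and 3.92% of their windows.

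**Figure D5:**
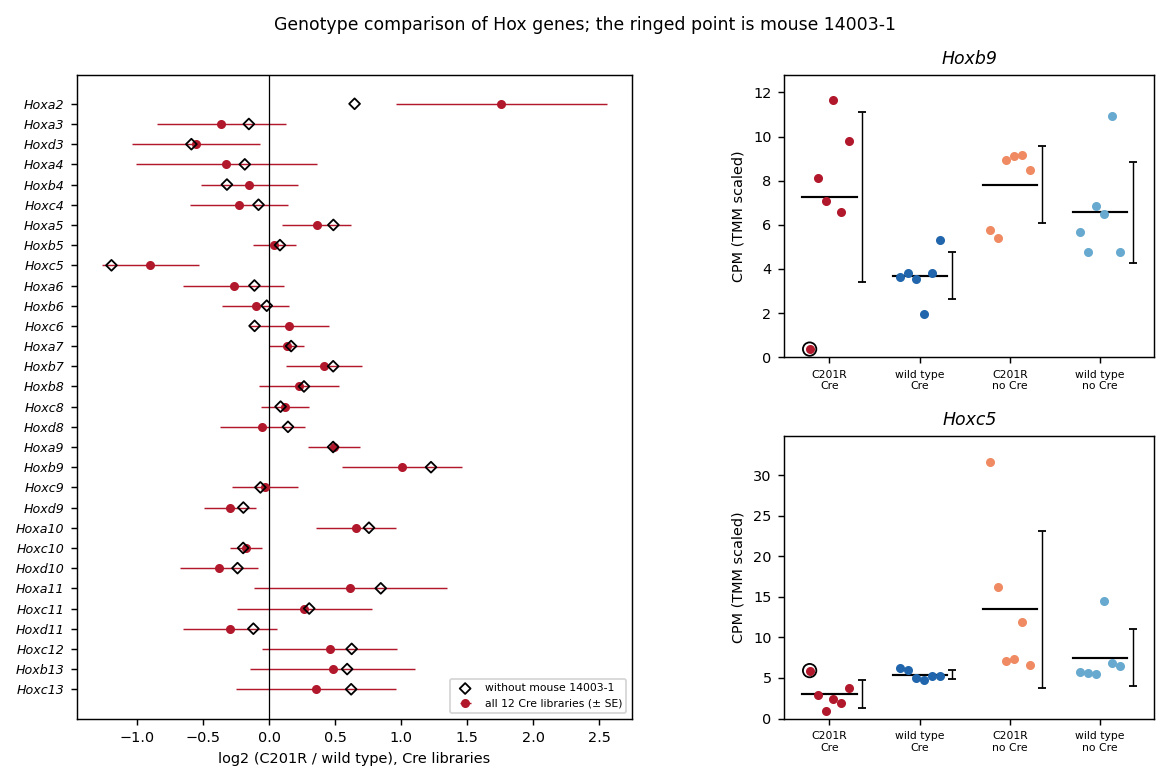
Left, log2 difference between C201R Cre and WT Cre for the 30 tested members with error bars of 1 SE from edgeR, and diamonds for the value without mouse 14003-1. Right, CPM of Hoxb9 and Hoxc5 in each library, by group, with that mouse ringed. Hoxb9 stands at 1.00 with it and 1.22 without, and Hoxc5 at -0.90 and -1.19.

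Between C201R no-Cre and WT no-Cre none of the 27 tested members passed in edgeR or DESeq2, where 0% of all genes did in edgeR and 2 genes did in DESeq2. Of all genes 455 had an unadjusted p under 0.05 in edgeR, and of the members 2 did (3 in DESeq2), Hoxc8 at 0.46 ± 0.18 and Hoxd8 at -0.41 ± 0.19. Hoxd10, the next by p, stood at -0.69 ± 0.34 (adjusted p = 0.9999 for all 3). Every member's ranges overlapped here too, again without a share of all genes to set beside it.

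Cofactors and regulators were read from lists, whose counts in the pooled comparison stand beside 33.4% of all genes higher and 37.4% lower. Of the 9 tested Pbx, Meis and Pknox genes, whose products bind DNA beside Hox proteins, 1 rose and 2 fell with Cre in the pooled comparison. Pbx3 rose by 0.84 ± 0.15, and Pknox1 stood at -1.20 ± 0.23 and Pknox2 at -0.65 ± 0.23. Meis1 stood at -0.41 ± 0.19 and did not pass.

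Polycomb genes, whose products hold Hox genes silent, had 5 higher and 9 lower of 21 tested, not far from the shares of all genes. Rbbp7 rose by 1.94 ± 0.16, while Ezh2, the histone methyltransferase of the complex, stood at -2.49 ± 0.35 and Phc1 at -2.31 ± 0.25. Of 12 trithorax genes, which keep Hox genes active, 4 rose and 7 fell, with Men1 at 1.45 ± 0.20, and the methyltransferases Kmt2a at -1.97 ± 0.17 and Kmt2c at -2.31 ± 0.18.

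Of 9 tested genes of the signals that set Hox domains in the embryo, 5 rose and 1 fell. Retinoic acid signalling made up most of them, with the receptors Rara at 1.87 ± 0.31, Rxra at 1.35 ± 0.21 and Rxrg at 2.69 ± 0.50 and the degrading enzyme Cyp26b1 at 1.88 ± 0.32, while Rarg stood at -1.26 ± 0.52. Between C201R Cre and WT Cre 1 of the 9 tested was lower and 0 higher, beside 1.82% of all genes lower and 2.29% higher. It was Gdf11, a signal of the posterior axis, at -0.92. Of 16 tested genes of motor column and pool identity 6 rose and 5 fell. Mnx1 rose by 4.67 ± 0.43, Lhx4 by 3.53 ± 0.38 and Ret by 2.69 ± 0.18, Zeb2 stood at -2.71 ± 0.16, and Foxp1, the Hox partner of limb motor columns, stood at -0.32 ± 0.16 and did not pass (adjusted p = 0.070). Lhx4 and Etv1 were lower in C201R Cre than in WT Cre, at -0.97 and -0.80, where 2 of the 16 tested were lower and 0 higher. This was not particular to these genes, since 4 of 15 tested cholinergic and motor neuron markers were lower there too and 0 higher.

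Genes next to the clusters and transcripts within them were read as well. Of 9 tested flanking genes 5 rose and 0 fell, with Mtx2, beside cluster d, at 1.45 ± 0.20 and Calcoco1, beside cluster c, at 0.90 ± 0.20. The antisense transcript Hoxb3os stood at -1.78 ± 0.35, and it overlaps Hoxb3 and Hoxb2.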

How the data were processed

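The authors aligned reads with Bowtie2 2.2.0 and counted them with RSEM 1.2.12 (submitters' processing notes). Their build, annotation and strand setting are not given in the sources used here. The authors deposited, for each of 24 libraries, RSEM's expected count and TPM per gene. Expected counts were rounded and tested with edgeR 4.0.16 in R 4.3.3 (filterByExpr, TMM, robust quasi-likelihood F test, library series as a term, Benjamini-Hochberg adjustment over all genes tested, threshold 0.05). Each pair of groups had its own fit on 12 libraries, and the pooled and interaction results one fit on all 24. The SE was taken as |log2 fold change| over √F. CPM are TMM-scaled over all 24 libraries; TPM compare levels between genes, and their totals include mitochondrial RNA. edgeR ran with limma 3.58.1, and DESeq2 1.42.0 was an alternative. The fit was tested on simulated counts with known changes. No 2 libraries agreed within sampling noise. The labels do not say what library series 1 (7 libraries) and 2 (17) stand for; by group, in the order C201R Cre, WT Cre, C201R no-Cre and WT no-Cre, series 1 holds 3, 2, 1 and 1 libraries. Each library is named by 1 mouse, and p-values measure the spread between these mice.

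Members named with full values are the pair most abundant in each cluster, up to 8 called in each direction in the pooled Cre comparison, and those called in a genotype comparison or else the 3 with the smallest p; Hoxa2, Hoxa5, Hoxb2, Hoxb6, Hoxb9, Hoxc6, Hoxc9, Hoxd1, Hoxd10 and Hoxd11 were further named after their values were seen. Some genes and sequences are not reported here. The members and lists were chosen with earlier results of these data known. Sequences are from GENCODE M21, in which 37607 of the 38924 gene IDs were found. Protein sequences and promoters were not used here.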

Additional observations from a re-analysis of the deposited data

Results flagged for a closer look

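Values of 1 library that lay far from the other 5 of its group were found in 16 of 100 sets tested, where chance gives about 1 in 20. In C201R Cre all of them were mouse 14003-1, with 4.43 CPM of Hoxd8, 0.369 CPM of Hoxb9 and 2.48% of Hox TPM from paralogues 1 to 3. In WT Cre all were mouse 14701-9. It had 36.6 CPM of Hoxd8, 7.14 CPM of Hoxb4, 7.43 CPM of Hoxa3, 34.8 CPM of Hoxb8, 0 CPM of Hoxa4 and a summed Hox level of 301 TPM. In C201R no-Cre, mouse 14004-8 was low for Hoxd3 at 1.42 CPM and high for paralogues 9 at 12.25% of Hox TPM. Mouse 14003-2 of the same group was high for Hoxb4 at 19.6 CPM and for paralogues 1 to 3 at 10.2%. In WT no-Cre, mouse 14004-4 had 30.2 CPM of Hoxb5, and mouse 14702-4 had 14.5 CPM of Hoxc5 and 17.5% of Hox TPM from paralogues 1 to 3.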

How the results depend on the processing

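The mouse number prefix, tried as a replicate block, did not pair the libraries: deviations from group means had a mean correlation of 0.031 over 40 same-prefix pairs and 0.0026 over 176 others. With the replicate block 12 of 32 members were called in the pooled Cre comparison, 8 of 28 in C201R and 8 of 27 in WT, where 9891 of 16109, 6120 of 14335 and 6116 of 14264 genes were called, and the calls over all genes were 75 between C201R Cre and WT Cre, 1 between the no-Cre groups and 6 in the interaction. The number of members called with Cre ran from 14 to 19 (pooled), 9 to 14 (C201R) and 9 to 16 (WT) when 1 library was left out, and the 4 abundant members that rose and the paralogues 3 and Hoxb4 that fell kept their pooled calls throughout.

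Between C201R Cre and WT Cre the members called were 2 in series 2 alone, 2 without mice 14003-1 and 14701-9, and 0 to 2 without 1 library. Every fit with 2 calls leaves out mouse 14003-1. Calls over all genes there were 32 with library totals, 1344 with DESeq2, 291 with no term for the series, 1370 in series 2 alone, 1950 without the pair of mice, and 170 to 936 without 1 library. Between the no-Cre groups they were 6 with no filter and 2 with DESeq2. In the interaction they were 1 with library totals, 115 with DESeq2, 43 without the pair of mice and 11 to 37 without 1 library.

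Signs turned as follows in the members named. With library totals, whose all-gene median is 0.55 in the pooled comparison, Hoxa5 stood at 0.00027, Hoxb6 at 0.10, Hoxb9 at 0.30, Hoxd11 at 0.30 and Hoxd8 at 0.56; in C201R Hoxa5 stood at 0.21; in WT Hoxb6 stood at 0.37, Hoxd8 at 0.39, Hoxa10 at 0.87, Hoxc4 at 0.050 and Hoxc5 at 0.34; between C201R Cre and WT Cre Hoxa7 stood at -0.10 and Hoxc8 at -0.14. Hoxa10 in WT stood at 0.0031 with RLE factors, 0.044 with TMM without mitochondrial genes and Gm26924, 0.17 with no filter, 0.00074 with DESeq2, 0.10 with the replicate block and -0.15 to 0.16 without 1 library. Hoxb9 in C201R stood at -0.11 with RLE factors, -0.12 with DESeq2, -0.054 with no series term, -0.045 with the replicate block, -0.063 in series 2 and -0.19 to 0.20 without 1 library. Pooled, Hoxa9 stood at -0.10 with RLE factors and with DESeq2, -0.024 in series 2 and -0.060 to 0.19 without 1 library. Hoxb7 stood at -0.14 with RLE factors and with DESeq2, -0.00065 with TMM without mitochondrial genes and Gm26924, -0.29 in series 2, -0.043 without the pair of mice and -0.16 to 0.26 without 1 library. Hoxc9 stood at -0.079 in series 2. In C201R, Hoxa2 stood at -0.079 with RLE factors, -0.050 with DESeq2, -0.56 in series 2, -0.59 without the pair of mice and -0.59 to 0.54 without 1 library, and Hoxd8 at -0.0080 with RLE factors, -0.0087 with DESeq2 and -0.18 with the replicate block. Hoxc8 between C201R Cre and WT Cre ran from -0.039 to 0.24 without 1 library. The causes were not tested.

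With expected counts in place of TPM the mean share of paralogues 4 to 8 was 64.7% in C201R Cre and 62.1% in WT Cre, and that of 10 to 13 was 23.4% and 26.4%. Without the most abundant gene of each class the share of 4 to 8 was 73.9% in C201R Cre and 73.0% in WT Cre, against 77.5% in C201R no-Cre and 74.4% in WT no-Cre, that of 10 to 13 was 12.8% and 12.7%, against 10.3% and 11.7%, and that of 9 in WT Cre, with Hoxd9 kept, was 12.8%. Depth limits the scarce members most: Hoxb3 and Hoxa4 had no count in 2 libraries each, and 6 members were too low to test.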
